A study of Mus musculus with 30 samples.

Results

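The comparison described here is the first 2 days of DMSO-induced differentiation in wild-type (WT) murine erythroleukemia (MEL) cells. MEL cells are a mouse line made from Friend virus erythroleukemia, held at a stage close to the proerythroblast, and the study used the DS19 clone. The libraries were chosen by their labels: 5 WT libraries at day 0, with no DMSO, and 5 WT libraries at day 2 in 1.5% DMSO, together 10 of the 30 libraries of the series. The labels of both groups say WT and name no engineered allele. The paper describes WT MEL cells that received a control (mCherry) lentiviral construct. Whether these 10 libraries come from such cells is not stated in the labels. The other 20 are WT cells at day 5 and a single CRISPR/Cas9 *Abcb10* knockout clone at days 0, 2 and 5. The labels call the 5 libraries of a group biological replicates but do not say how the cultures were kept apart, so the p-values measure the spread between these libraries. RNA was depleted of ribosomal and globin RNA and sequenced as stranded total RNA libraries.

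An erythroid precursor that starts to mature makes heme in its mitochondria and cytosol, takes up iron through the transferrin receptor, and assembles a spectrin-based skeleton under its membrane. It makes globin, stops dividing, and dismantles much of the machinery for making ribosomes and organelles. The transcription factors *Gata1*, *Tal1* and *Klf1* drive red cell genes, while *Myb* and *Spi1* (PU.1) hold progenitors immature, and PU.1 is the factor that the Friend provirus activates in MEL cells. DMSO has long been used to start this program in MEL cells.

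Library totals ran from 14364618 to 19140072 counts at day 0 (median 16510488) and from 13829992 to 16553112 at day 2 (median 15058820). Levels are given as CPM, counts scaled to library size after TMM normalization, and the order of 5 values is always replicates 1 to 5. Correlations of log2 CPM across genes were 0.984 to 0.989 between day 0 libraries, 0.959 to 0.990 between day 2 libraries, and 0.883 to 0.953 between the days. The day 2 libraries were not alike. Replicates 1 and 2 lay farther from day 0 on the first principal component (80.3 and 78.7, which holds 72.8% of the variance) than replicates 3, 4 and 5 (36.4, 29.6 and 42.0), with day 0 at -57.8 to -46.1. Small non-coding RNA took 3.13% and 2.82% of counts in replicates 1 and 2, 5.42%, 6.06% and 5.78% in replicates 3, 4 and 5, and 3.86% to 5.30% at day 0. Counts or medians of most lists that lead a paragraph are therefore also given without replicates 1 and 2, an alternative chosen after seeing the data. A list given without it was not thereby unaffected.

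The cells carried the red cell label in their RNA. Of 8 erythroid markers, 7 were in the table and all 7 were detected, with a summed level of 1884 to 2146 CPM at day 0 and 2894 to 3842 CPM at day 2. *Slc4a1* was near 0 at day 0 (0 to 0.448 CPM). Of 8 myeloid and mast cell markers only *Prtn3* was high enough to test (-0.41 on the log2 scale, adjusted p = 0.15), and the list summed to 14.2 to 16.6 CPM at day 0 and 7.03 to 14.7 at day 2. *Elane* and *Itgam* stayed at 3 counts or fewer in every library. Megakaryocyte markers summed to 328 to 438 CPM at day 0 and 194 to 223 at day 2, with *Pf4* carrying the fall (log2 fold change -1.81 ± 0.23 (SE), adjusted p = 1.9e-05). A set of 3 lymphocyte markers summed to at most 0.448 CPM and one of 3 fibroblast and epithelial markers to at most 0.971 CPM in any library. Longer lists of 13 and 12 such genes summed to 2.66 to 5.06 and 2.63 to 4.93 CPM at day 0, and to 0.550 to 0.799 and 1.08 to 2.18 CPM at day 2.

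By day 2 most of the measured transcriptome had moved. The quasi-likelihood test of edgeR was run on 12839 genes, and 7985 (62.2%) differed at a Benjamini-Hochberg adjusted p under 0.05: 4049 (31.5%) rose and 3936 (30.7%) fell. Past a log2 fold change of 0.58, 2878 (22.4%) rose and 2456 (19.1%) fell. All 5 day 2 libraries lay above all 5 day 0 libraries for 2806 genes (21.9%) and below them for 3163 (24.6%). The median change over all genes was 0.0096 on the log2 scale, with quartiles at -0.48 and 0.56. With day 2 replicates 1 and 2 left out, 3958 genes rose and 3683 fell. A share of a gene list that is called is read against the 31.5% and 30.7% here, and RNA levels are relative: in bulk RNA, fewer cells of a type and less RNA per cell cannot be told apart.

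**Figure D1:**
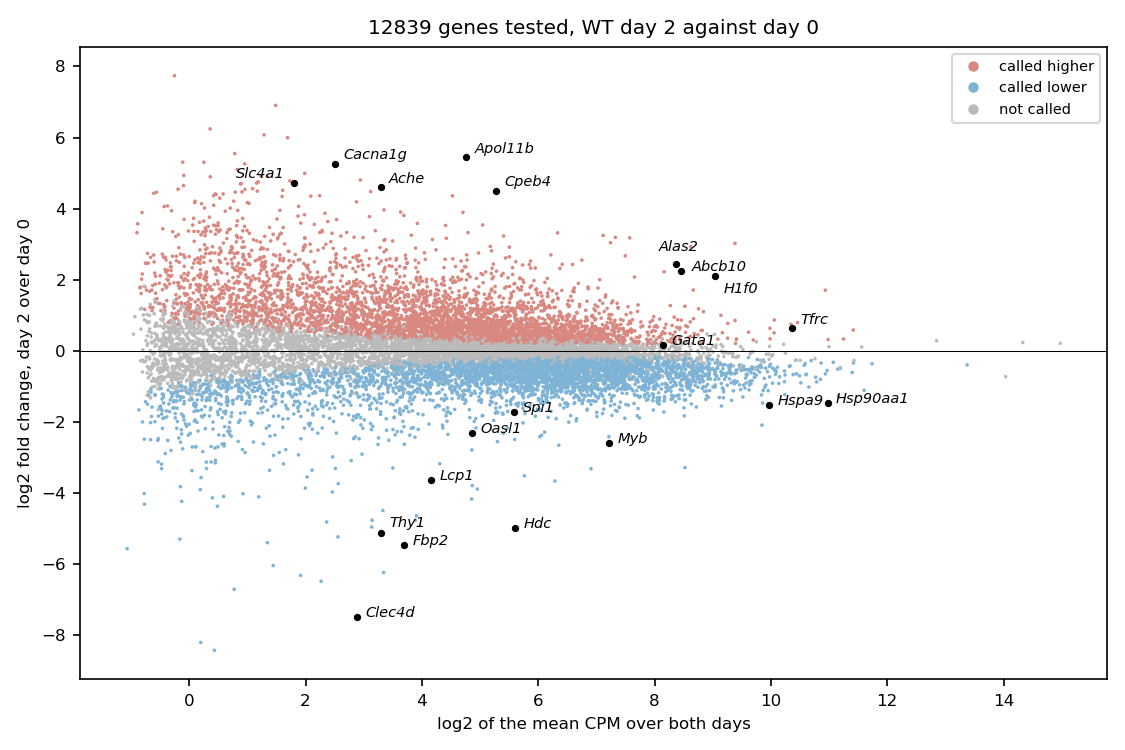
Each point is 1 of 12839 genes; the x axis is the log2 of its mean CPM over both days and the y axis its fitted log2 fold change at day 2 over day 0. Genes called higher are red, genes called lower blue and uncalled genes grey. *Alas2*, *Abcb10* and *H1f0* stand high among strongly expressed genes, *Myb*, *Hdc* and *Hspa9* low, and *Gata1* lies near 0 (0.18).

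Heme synthesis rose almost as a block. Of the 9 enzymes, 8 rose and none fell, all 8 with no overlap between the days, and the median was 1.26 on the log2 scale against 0.0096 for all genes. Without day 2 replicates 1 and 2, 8 rose, 0 fell and the median was 1.16. The sole member not called was *Alas1*, the housekeeping form of the first enzyme (log2 fold change -0.14 ± 0.15 (SE), adjusted p = 0.42), whose fitted change turned to 0.012 when day 2 replicate 3 was left out.

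The erythroid form of that enzyme, *Alas2* (chrX:150547375-150570638, GRCm38), makes 5-aminolevulinic acid and sets the pace of the pathway in red cells. It was at 114, 104, 102, 94.3 and 95.7 CPM in the 5 day 0 libraries and 539, 555, 633, 449 and 611 CPM in the 5 day 2 libraries (log2 fold change 2.45 ± 0.10 (SE), adjusted p = 5.1e-09). Every day 2 library was above every day 0 library, and the fold was 5.47. *Alas2* shares 12.9% of its exon bases with *Apex2* on the opposite strand, and how the counting used strand is not given in the sources used here. *Alad*, which joins 2 molecules of 5-aminolevulinic acid, was at 212, 216, 227, 211 and 218 CPM in the 5 day 0 libraries and 596, 650.4, 440.3, 482 and 422 CPM in the 5 day 2 libraries (log2 fold change 1.26 ± 0.12 (SE), adjusted p = 1.4e-06). Replicates 1 and 2 were the highest of the day 2 libraries for *Alad* but not for *Alas2*.

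The promoters of both genes are shown because each holds one of the short motifs counted further on. The 250 bases before the RefSeq start site on GRCm38.p6 are given 5′ to 3′ in lower case, with AGATAA or TGATAA (the GATA factor motif), CACGTG (E-box), CACACCC and CCAAT in capitals on whichever strand they matched. *Alas2* is at chrX:150547167-150547416, plus strand and *Alad* at chr4:62519910-62520159, minus strand. The match in *Alas2* starts 86 bases before the start site, and those in *Alad* start 28 (CACGTG) and 174 (CCAAT) bases before it.
Alas2: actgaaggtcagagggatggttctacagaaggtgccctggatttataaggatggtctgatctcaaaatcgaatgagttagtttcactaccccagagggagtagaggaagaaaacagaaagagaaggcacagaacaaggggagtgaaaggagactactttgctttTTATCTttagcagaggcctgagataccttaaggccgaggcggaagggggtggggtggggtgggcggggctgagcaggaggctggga
Alad: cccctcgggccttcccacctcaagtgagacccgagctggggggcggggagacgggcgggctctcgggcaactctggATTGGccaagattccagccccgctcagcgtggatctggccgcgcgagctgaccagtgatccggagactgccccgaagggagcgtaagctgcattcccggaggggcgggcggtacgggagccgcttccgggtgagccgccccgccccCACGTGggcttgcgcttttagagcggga

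The enzymes that carry the pathway on to coproporphyrinogen and beyond rose by different amounts. *Uros*, which closes the ring, was at 24.4, 25.5, 27.3, 22.9 and 22.1 CPM in the 5 day 0 libraries and 87.9, 81.5, 84.9, 73.2 and 74.2 CPM in the 5 day 2 libraries (log2 fold change 1.72 ± 0.09 (SE), adjusted p = 1.8e-08). Its days did not overlap. *Urod* (111 ± 8.34 CPM at day 0 and 192 ± 10.6 CPM at day 2, log2 fold change 0.79 ± 0.08 (SE), adjusted p = 2.0e-06) and *Cpox* (358 ± 18.2 CPM at day 0 and 534 ± 77.6 CPM at day 2, log2 fold change 0.58 ± 0.10 (SE), adjusted p = 2.4e-04) rose less, with *Cpox* at the 0.58 limit. Among the 8 enzymes that rose, *Urod* and *Cpox* had the smallest fitted changes.

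The last 2 steps are mitochondrial. *Ppox*, protoporphyrinogen oxidase, was at 22.3, 18.5, 17.6, 17.9 and 20.7 CPM in the 5 day 0 libraries and 107, 115, 80.0, 76.6 and 109 CPM in the 5 day 2 libraries (log2 fold change 2.33 ± 0.13 (SE), adjusted p = 3.2e-08), a 5.03-fold rise. It shares 17.5% of its exon bases with *B4galt3* on the opposite strand. *Fech*, ferrochelatase, which places iron in the ring, was at 73.6, 66.2, 71.6, 77.1 and 71.01 CPM in the 5 day 0 libraries and 203, 219, 233, 197 and 217 CPM in the 5 day 2 libraries (log2 fold change 1.57 ± 0.08 (SE), adjusted p = 1.0e-08). The days did not overlap for *Ppox* or *Fech*.

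**Figure D2:**
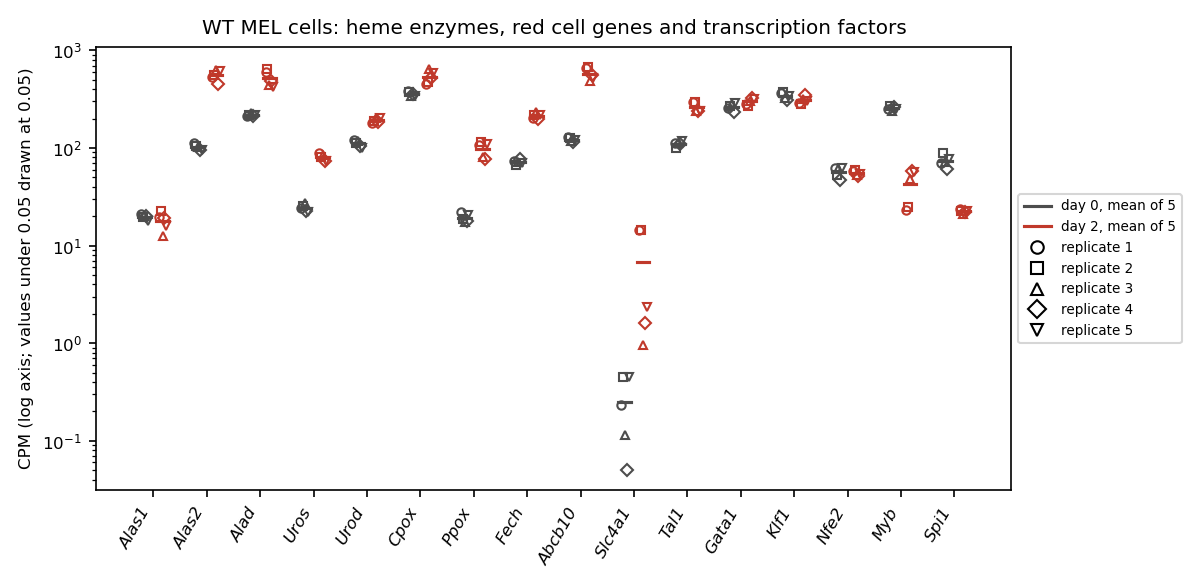
CPM on a log axis for 16 genes in the 10 WT libraries; grey symbols are day 0, red symbols day 2, the symbol shape gives the replicate number and bars are means of 5. The 7 called heme enzymes shown sit higher at day 2 in every library, *Gata1*, *Klf1* and *Nfe2* overlap between days, and *Slc4a1* is split at day 2, with replicates 1 and 2 at 14.5 and 14.3 CPM and the others at 0.963 to 2.34.

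Heme and iron handling did not move as a block. Of 19 tested genes for mitochondrial and heme transport, breakdown and sensing, 7 rose and 7 fell, with a median of 0.04. Leaving out day 2 replicates 1 and 2 gave 6 and 7, with a median of -0.019. *Abcb10* (chr8:123952459-123983122, GRCm38), the inner membrane ABC transporter that the study deleted in its clone, was at 128, 126, 118, 115 and 121 CPM in the 5 day 0 libraries and 662, 674, 489.6, 554 and 518 CPM in the 5 day 2 libraries (log2 fold change 2.25 ± 0.10 (SE), adjusted p = 8.8e-09). This 4.76-fold rise was the largest of the list, and *Abcb10* shares 10.3% of its exon bases with *Gm45890* on the opposite strand. *Fam210b*, a mitochondrial protein of the same iron and heme pathway, also rose (23.6 to 69.4 CPM, log2 fold change 1.55 ± 0.09 (SE), adjusted p = 2.8e-08). The members that fell most were *Hmox1*, heme oxygenase, which breaks heme down (46.9 to 18.1 CPM, log2 fold change -1.37 ± 0.11 (SE), adjusted p = 5.9e-07), and *Slc48a1*, a heme transporter of endosomes (264 to 126 CPM, log2 fold change -1.07 ± 0.10 (SE), adjusted p = 2.2e-06).

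Of 13 iron genes tested, 7 rose and 1 fell (median 0.35), against 6 and 0 without day 2 replicates 1 and 2. *Tfrc*, the transferrin receptor, was at 988, 949.7, 1043, 1261 and 893 CPM in the 5 day 0 libraries and 2047, 2012, 1613, 1145 and 1237 CPM in the 5 day 2 libraries (log2 fold change 0.65 ± 0.16 (SE), adjusted p = 0.0039). Its days overlapped: day 2 replicates 4 and 5 lay within the day 0 range. *Erfe*, the erythroid hormone erythroferrone, rose from 3.46 to 16.96 CPM (log2 fold change 2.28 ± 0.33 (SE), adjusted p = 5.7e-05), and *Fth1*, ferritin heavy chain, rose from 197 to 314 CPM (log2 fold change 0.68 ± 0.07 (SE), adjusted p = 2.1e-06). *Erfe* shares 12.7% of its exon bases with *Ilkap*. *Aco1*, iron regulatory protein 1, was the member that fell (log2 fold change -0.23 ± 0.07 (SE), adjusted p = 0.015), a call lost without day 2 replicate 1 (adjusted p = 0.092) or replicate 3 (0.06).

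Of 15 genes for iron-sulfur cluster assembly, 2 rose and 7 fell (median -0.15). With replicates 3, 4 and 5 left out the median was -0.55, and with replicates 1 and 2 left out -0.06. *Hspa9*, the mitochondrial chaperone mortalin, fell from 1493 to 516 CPM (log2 fold change -1.53 ± 0.09 (SE), adjusted p = 3.0e-08), and *Fdxr*, ferredoxin reductase, from 34.1 to 22.01 CPM (log2 fold change -0.63 ± 0.11 (SE), adjusted p = 2.6e-04). *Isca1* rose from 40.9 to 75.9 CPM (log2 fold change 0.89 ± 0.09 (SE), adjusted p = 2.8e-06) and *Glrx5*, a mitochondrial glutaredoxin, had a small rise (log2 fold change 0.23 ± 0.08 (SE), adjusted p = 0.019) that lost its call without day 0 replicate 1 (adjusted p = 0.057), 4 (0.051) or 5 (0.05).

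Globin transcripts are what depletion left, and took 0.00485% to 0.00595% of counts at day 0 and 0.0180% to 0.0281% at day 2. Depletion need not be equal between libraries, so these values do not give transcript levels in the cells. Of 4 globin genes tested 3 rose. *Hba-a1* was at 2.71, 1.27, 1.19, 1.71 and 1.09 CPM in the 5 day 0 libraries and 12.6, 14.8, 19.1, 22.7 and 14.7 CPM in the 5 day 2 libraries (log2 fold change 3.38 ± 0.26 (SE), adjusted p = 3.2e-07), *Hbb-bs* at means of 26.6 ± 2.71 CPM at day 0 and 144 ± 26.2 CPM at day 2 (log2 fold change 2.44 ± 0.13 (SE), adjusted p = 1.7e-08), and *Hbb-bt* at 28.3 ± 4.53 CPM at day 0 and 28.7 ± 12.6 CPM at day 2 (log2 fold change 0.02 ± 0.24 (SE), adjusted p = 0.95). *Hbb-bs* and *Hbb-bt* are near-identical copies, as are *Hba-a1* and *Hba-a2*, and reads cannot be split between such copies with certainty. The fitted change of *Hbb-bt* had no stable sign when single libraries were left out.

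Most erythroid transcription factors rose, but *Gata1*, *Klf1* and *Nfe2* did not pass the test. Of 21 factors 14 rose and 2 fell (median 0.87), and without day 2 replicates 1 and 2 13 rose, 2 fell and the median was 0.67. *Gata1* was at 266 ± 22.7 CPM at day 0 and 300.2 ± 22.3 CPM at day 2 (log2 fold change 0.18 ± 0.08 (SE), adjusted p = 0.082), *Klf1* at 343 ± 26.9 CPM at day 0 and 308 ± 24.3 CPM at day 2 (log2 fold change -0.16 ± 0.08 (SE), adjusted p = 0.11) and *Nfe2* at 57.05 ± 7.05 CPM at day 0 and 55.8 ± 3.38 CPM at day 2 (log2 fold change -0.03 ± 0.10 (SE), adjusted p = 0.78). All 3 had overlapping days. *Gata1* did pass without day 2 replicate 1 (adjusted p = 0.034), replicate 2 (0.021) or replicate 3 (0.044), without replicates 1 and 2 together (0.0079), with at least 10 counts in every library (0.037), without globin, mitochondria-encoded and small RNA genes (0.033) and with centring by gene length (0.0025). Its value was then 0.21 to 0.31. *Klf1* passed as lower without day 2 replicate 4 (0.038) and without replicates 3, 4 and 5 (0.026), and with centring by gene length its value was 0.13 (adjusted p = 0.12).

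*Tal1*, the partner of *Gata1* in red cell gene activation, was at 113, 100.3, 113, 111 and 117 CPM in the 5 day 0 libraries and 294, 295, 240.4, 241 and 241 CPM in the 5 day 2 libraries (log2 fold change 1.24 ± 0.09 (SE), adjusted p = 1.6e-07), and its days did not overlap. *Foxo3*, a factor for antioxidant and maturation genes, rose from 47.1 to 149 CPM (log2 fold change 1.66 ± 0.12 (SE), adjusted p = 1.5e-07). *Cbfa2t3* (Eto2), a corepressor bound to *Tal1*, rose from 3.06, 4.704, 3.41, 4.53 and 5.89 CPM to 45.4, 42.3, 10.8, 11.97 and 15.6 CPM (log2 fold change 2.55 ± 0.42 (SE), adjusted p = 1.7e-04), and its fitted change was 1.602 without day 2 replicates 1 and 2. The proteins that join *Tal1* and *Gata1* in 1 complex went the other way: *Lmo2* fell from 197 to 59.6 CPM (log2 fold change -1.73 ± 0.11 (SE), adjusted p = 7.4e-08). *Ldb1* had a small fall with overlapping days (log2 fold change -0.21 ± 0.08 (SE), adjusted p = 0.025), which lost its call without day 0 replicate 1 (adjusted p = 0.055) or 2 (0.053) or day 2 replicate 1 (0.11) or 3 (0.086).

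The promoter of *Tal1* is shown as that of a regulator whose RNA rose and that holds a GATA motif, which starts 205 bases before the start site (chr4:115056176-115056425, plus strand, GRCm38.p6, capitals as above).
Tal1: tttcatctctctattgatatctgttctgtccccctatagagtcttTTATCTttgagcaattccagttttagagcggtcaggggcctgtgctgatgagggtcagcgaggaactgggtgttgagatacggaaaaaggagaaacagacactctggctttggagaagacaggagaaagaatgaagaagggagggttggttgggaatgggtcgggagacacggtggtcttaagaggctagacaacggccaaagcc

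Progenitor and leukemia factors mostly fell: of 15 tested, 9 fell and 2 rose (median -0.42, and -0.29 without day 2 replicates 1 and 2). *Myb*, which keeps progenitors cycling, was at 252, 271, 239, 263 and 253 CPM in the 5 day 0 libraries and 23.3, 24.8, 48.6, 58.7 and 56.4 CPM in the 5 day 2 libraries (log2 fold change -2.59 ± 0.24 (SE), adjusted p = 1.3e-06), 6.03-fold lower. All 5 day 2 values were far under day 0, with replicates 1 and 2 the lowest. *Spi1*, the provirus-activated factor, was at 69.5, 89.1, 71.9, 60.99 and 76.6 CPM in the 5 day 0 libraries and 23.9, 22.5, 20.98, 22.3 and 22.4 CPM in the 5 day 2 libraries (log2 fold change -1.71 ± 0.10 (SE), adjusted p = 4.4e-08), and its 5 day 2 values nearly coincide. *Runx1* rose from 13.9 to 52.5 CPM (log2 fold change 1.92 ± 0.30 (SE), adjusted p = 1.1e-04). *Etv6* was called at a small rise (log2 fold change 0.44 ± 0.18 (SE), adjusted p = 0.049) with overlapping days, a call lost on leaving out any of 7 single libraries, at adjusted p from 0.074 to 0.11. *Myc* was at 34.0, 34.5, 34.1, 37.2 and 48.98 CPM and 54.1, 48.8, 40.6, 41.97 and 39.8 CPM (log2 fold change 0.26 ± 0.13 (SE), adjusted p = 0.091), not called, though it passed without day 0 replicate 5 (adjusted p = 0.015) or day 2 replicate 3 (0.041). *Kit* and *Ccnd1* had at most 9 and 2 counts in any WT library and were not tested.

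The membrane skeleton of the red cell was the list with the highest median after the globins. Of 14 genes, 12 rose and 1 fell (median 1.48), and 11 of the 12 rises passed the 0.58 limit. Without day 2 replicates 1 and 2, 12 rose, 2 fell and the median was 1.35. *Slc4a1* is band 3, the anion exchanger that anchors the skeleton. It was at 0.231, 0.448, 0.114, 0 and 0.448 CPM in the 5 day 0 libraries and 14.5, 14.3, 0.963, 1.63 and 2.34 CPM in the 5 day 2 libraries (log2 fold change 4.74 ± 0.90 (SE), adjusted p = 5.1e-04). Day 2 split into replicates 1 and 2, at 14.5 and 14.3 CPM, and replicates 3, 4 and 5, at 0.963 to 2.34 CPM, all above day 0. Without replicates 1 and 2 its log2 change was 2.74, against 4.74 with all 5.

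Other members of the list rose as well. *Stom*, stomatin, rose from 78.2 to 198 CPM (log2 fold change 1.34 ± 0.08 (SE), adjusted p = 3.5e-08). *Epb42*, *Ank1* and *Sptb*, for protein 4.2, ankyrin and beta-spectrin, had log2 changes of 3.33, 3.19 and 2.93. These 3 were singled out after their values were seen. *Tpm1*, a tropomyosin, was the member that fell (log2 fold change -0.42 ± 0.07 (SE), adjusted p = 3.1e-04), and *Tpm3* was not called (-0.197).

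Surface proteins of the red cell gave 12 rises and 3 falls among 18 tested (median 0.59), and 13 and 2 without day 2 replicates 1 and 2. *Art4*, the Dombrock blood group protein, rose from 0.751, 0.971, 1.99, 1.56 and 0.512 CPM to 20.5, 21.6, 12.6, 12.7 and 12.5 CPM (log2 fold change 3.78 ± 0.32 (SE), adjusted p = 7.0e-07). *Cd44*, an adhesion receptor of early precursors, fell from 26.8 to 14.2 CPM (log2 fold change -0.91 ± 0.14 (SE), adjusted p = 1.0e-04). *Icam4* is counted lower (log2 fold change -0.396 ± 0.11 (SE), adjusted p = 0.0054), but all of its exon bases are shared with *Gm47079* on the opposite strand, so its value is uncertain. Its call was lost with all 30 libraries in 1 fit (adjusted p = 0.076) and with centring by gene length (0.82).

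The miR-144 and miR-451a hairpins lie side by side on chromosome 11 and form an erythroid microRNA cluster known to be switched on by GATA1. They were singled out after their values were seen. Mature sequences are from RefSeq (GRCm38.p6, plus strand), with the seed (bases 2 to 8) in capitals. The 3 seeds differ from one another.
mmu-miR-144-5p (chr11:78073010-78073032): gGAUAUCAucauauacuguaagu
mmu-miR-144-3p (chr11:78073047-78073066): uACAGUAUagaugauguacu
mmu-miR-451a (chr11:78073186-78073207): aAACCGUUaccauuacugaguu

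Total RNA libraries of this kind hold the hairpin and its primary transcript, and say nothing of the amount of mature microRNA. Counts on the *Mir144* hairpin were 6, 2, 4, 0 and 4 at day 0 and 60, 52, 50, 72 and 75 at day 2 (log2 fold change 4.17 ± 0.40 (SE), adjusted p = 2.1e-06). On *Mir451a* they were 0, 0, 1, 0 and 1 at day 0, at the floor of 3 counts, and 41, 27, 41, 42 and 55 at day 2, which is at least 12.9-fold higher (adjusted p = 5.8e-07). Neither hairpin overlapped between days, and in neither were replicates 1 and 2 the highest.

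Receptor signalling genes went both ways: of 18 genes of the erythropoietin and Kit pathways, 9 rose and 6 fell (median 0.39). The counts were 8 and 6 without day 2 replicates 1 and 2 (median 0.24). *Epor*, the erythropoietin receptor, was at 237, 255, 227, 202 and 229.6 CPM in the 5 day 0 libraries and 343, 362, 314, 342 and 311 CPM in the 5 day 2 libraries (log2 fold change 0.54 ± 0.08 (SE), adjusted p = 7.7e-05), all day 2 values above day 0. *Cish*, a STAT5-induced inhibitor of that receptor, rose from 1.91, 1.42, 2.27, 1.78 and 3.202 CPM to 65.2, 68.5, 27.9, 26.8 and 31.4 CPM (log2 fold change 4.36 ± 0.34 (SE), adjusted p = 3.2e-07). *Pim1*, a STAT5-induced kinase, rose from 53.1 to 213 CPM (log2 fold change 2.004 ± 0.20 (SE), adjusted p = 2.9e-06). Among those that fell were the phosphatase *Ptpn6* (SHP-1), which ends receptor signalling (187 to 76.4 CPM, log2 fold change -1.29 ± 0.08 (SE), adjusted p = 5.5e-08), and the adaptor *Grb2* (95.1 to 46.02 CPM, log2 fold change -1.05 ± 0.09 (SE), adjusted p = 5.7e-07). *Pim1* shares 14.5% of its exon bases with *Gm26885*.

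Genes typical of other blood cells mostly fell. Of 29 tested genes of leukocyte adhesion and signalling, 18 fell and 4 rose (median -0.92). From day 2 replicates 3, 4 and 5 alone, 4 rose, 20 fell and the median was -0.903. *Lcp1*, the leukocyte actin bundler L-plastin, was at 35.3, 30.5, 32.7, 31.1 and 36.3 CPM in the 5 day 0 libraries and 1.88, 2.83, 2.13, 3.07 and 3.37 CPM in the 5 day 2 libraries (log2 fold change -3.64 ± 0.16 (SE), adjusted p = 7.2e-09). *Cd53*, a leukocyte tetraspanin, was at 10.4, 8.74, 12.8, 16.6 and 8.71 CPM in the 5 day 0 libraries and 0.303, 0.1205, 0.619, 0.188 and 0.285 CPM in the 5 day 2 libraries (log2 fold change -5.23 ± 0.34 (SE), adjusted p = 8.5e-08). Neither gene's days overlapped. *Csf2rb*, the shared beta chain of the IL-3 and GM-CSF receptors, rose from 30.2 to 163 CPM (log2 fold change 2.43 ± 0.25 (SE), adjusted p = 3.9e-06), and the integrin *Itgb7* from 10.4 to 28.9 CPM (log2 fold change 1.47 ± 0.16 (SE), adjusted p = 5.4e-06).

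Of a longer list of 22 myeloid and mast cell genes, which holds *Prtn3* too, only 3 were tested, and 2 fell: *Fcgr3*, an IgG receptor (10.4 to 1.04 CPM, log2 fold change -3.304 ± 0.25 (SE), adjusted p = 3.0e-07), and *Ltf*, lactoferrin (1.99 to 0.431 CPM, log2 fold change -2.19 ± 0.33 (SE), adjusted p = 9.5e-05). Of 8 megakaryocyte genes tested 4 fell and 2 rose. *Treml1* fell from 1.84 to 0.377 CPM (log2 fold change -2.25 ± 0.49 (SE), adjusted p = 0.0014; -2.91 without day 2 replicate 2) and *Gp5* from 18.6 to 6.01 CPM (log2 fold change -1.63 ± 0.19 (SE), adjusted p = 8.2e-06). *Vwf* was higher (0.404, 0.971, 1.25, 0.891 and 1.09 CPM against 11.03, 11.2, 4.06, 3.32 and 5.08 CPM, log2 fold change 2.91 ± 0.41 (SE), adjusted p = 5.2e-05), and *Gp1ba* was called at 0.803 (adjusted p = 0.028), lost on leaving out any of 6 single libraries (adjusted p from 0.051 to 0.078). *Cd79b*, a B cell receptor chain, was the single lymphocyte gene tested (2.68 to 0.118 CPM, log2 fold change -4.37 ± 0.57 (SE), adjusted p = 2.5e-05; -5.61 without day 2 replicate 5), and *Krt8*, a keratin, the single epithelial one (2.21 to 0.243 CPM, log2 fold change -3.13 ± 0.44 (SE), adjusted p = 4.6e-05).

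The 10 protein-coding genes that fell most, among those with at least 5 CPM on the higher day and no overlap, included many surface proteins of leukocytes. *Clec4d*, a C-type lectin of macrophages, was at 15.1, 14.4, 17.8, 13.7 and 12.5 CPM in the 5 day 0 libraries and 0, 0.0602, 0.138, 0.125 and 0.0571 CPM in the 5 day 2 libraries. Its day 2 counts never passed 3, so the fall is at least 79.2-fold (adjusted p = 5.1e-09). The same floor bounds *Ctsj*, a cathepsin (9.01, 7.09, 8.57, 11.7 and 11.3 CPM at day 0, at least 51.3-fold lower), and *Pilrb1*, a paired receptor (5.89, 4.85, 5.56, 5.65 and 4.87 CPM, at least 28.9-fold lower). *Pilrb2* (20.02 to 0.258 CPM, -6.23) is of the same family as *Pilrb1*, and *Cd200r3* (7.46 to 0.0842 CPM, -6.31; -7.55 without day 2 replicate 2) and *Cd200r4* (17.04 to 0.542 CPM, -4.95) are CD200 receptors. *Pilrb1* and *Pilrb2*, and *Cd200r3* and *Cd200r4*, are close paralogs that may share reads.

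*Hdc*, histidine decarboxylase, the enzyme that makes histamine, was at 98.8, 91.2, 94.1, 91.2 and 96.5 CPM in the 5 day 0 libraries and 2.79, 1.51, 4.06, 3.32 and 3.31 CPM in the 5 day 2 libraries (log2 fold change -4.98 ± 0.18 (SE), adjusted p = 3.9e-09). The lowest day 0 library was at 91.2 CPM and the highest day 2 library at 4.06 CPM. *Thy1*, a surface glycoprotein, was at 16.97, 22.5, 18.4, 14.9 and 23.3 CPM in the 5 day 0 libraries and 0.424, 0.542, 0.0688, 1.002 and 0.628 CPM in the 5 day 2 libraries (log2 fold change -5.13 ± 0.33 (SE), adjusted p = 7.2e-08). *Fbp2*, the muscle form of fructose bisphosphatase, fell from 25.3 to 0.582 CPM (log2 fold change -5.45 ± 0.26 (SE), adjusted p = 1.0e-08). With *Cd53*, already described, these complete the 10.

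Among the 10 that rose most, replicates 1 and 2 were the highest day 2 libraries in each. *Apol11b*, of the apolipoprotein L family, was at 1.27, 1.34, 1.02, 0.817 and 1.601 CPM in the 5 day 0 libraries and 87.4, 76.6, 37.5, 35.6 and 28.1 CPM in the 5 day 2 libraries (log2 fold change 5.44 ± 0.37 (SE), adjusted p = 1.2e-07). Its near copy *Apol11a* was at 0, 0, 0.0568, 0 and 0.128 CPM in the 5 day 0 libraries and 8.84, 10.8, 3.03, 3.195 and 1.88 CPM in the 5 day 2 libraries, with day 0 at the floor, at least 28.3-fold higher (adjusted p = 8.1e-06). *Cpeb4*, which controls translation in late erythroid cells, was at 1.85, 2.09, 3.01, 4.68 and 4.74 CPM in the 5 day 0 libraries and 116, 108, 57.4, 34.4 and 55.9 CPM in the 5 day 2 libraries (log2 fold change 4.51 ± 0.38 (SE), adjusted p = 5.9e-07). Reads may be shared between the *Apol11* copies. For each gene even the lowest day 2 library was above the highest day 0 library, as the choice of these genes required.

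*Ache*, acetylcholinesterase, a red cell surface enzyme, was at 0.5196, 0.821, 0.738, 0.817 and 0.9605 CPM in the 5 day 0 libraries and 31.3, 32.8, 8.74, 9.08 and 12.2 CPM in the 5 day 2 libraries (log2 fold change 4.61 ± 0.46 (SE), adjusted p = 2.7e-06). *Cacna1g*, a T-type calcium channel, rose from 0.274 to 11.1 CPM (log2 fold change 5.27 ± 0.52 (SE), adjusted p = 2.6e-06), and *Myo15*, an unconventional myosin, from 0.102 to 6.35 CPM (5.996; 8.08 without day 0 replicate 2). *Ripor3* (0.237 to 7.68 CPM, 4.99), *Btnl10* (0.741 to 16.6 CPM, 4.48) and *Cdhr4* (0.416 to 9.04 CPM, 4.37, with 28.8% of its exon bases shared with *Gm20662*) follow, and *Slc4a1* is the tenth. Without day 2 replicates 1 and 2 the log2 changes of *Ache*, *Cacna1g* and *Myo15* were 3.72, 4.47 and 4.95. Beside those given with their own results, other named genes whose value moved by over 1.5-fold in the same fit were, on the log2 scale, *Apol11b* 4.81, *Cd200r3* -7.21, *Cish* 3.77, *Erfe* 1.596, *Ern1* 1.16, *Pilrb2* -6.998, *Runx1* 1.33, *Treml1* -2.94 and *Vwf* 2.196. Among genes at the floor at day 0 the fitted values, which are no bounds, were 5.88 for *Apol11a* (6.90 with all libraries), 4.21 for *5430434F05Rik* (5.26), 4.45 for *Gm38115* (5.55), 3.04 for *Gm39041* (4.40) and 3.69 for *Gm44027* (4.37).

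The promoter of *Apol11a* is shown because the gene rose from the floor and its promoter holds a GATA motif 83 bases before the start site (chr15:77508019-77508268, plus strand, GRCm38.p6).
Apol11a: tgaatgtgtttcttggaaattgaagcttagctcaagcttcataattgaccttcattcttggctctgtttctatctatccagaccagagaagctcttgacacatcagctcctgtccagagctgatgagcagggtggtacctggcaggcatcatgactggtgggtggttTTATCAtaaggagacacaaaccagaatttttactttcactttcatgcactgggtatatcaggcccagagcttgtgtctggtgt

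In all, 67 genes were at 3 or fewer counts in every day 0 library and averaged at least 1 CPM at day 2, and 13 showed the reverse. Of the 67, 12 are protein-coding, and after *Apol11a* the largest lower bounds were for the unclassified or non-coding *5430434F05Rik* (at least 19.2-fold), *Gm38115* (17.2), *Gm39041* (13.4) and *Gm44027* (13.02). In each of these 4, replicates 1 and 2 were the highest day 2 libraries. Of the 13, 9 are protein-coding, led by *Clec4d*, *Ctsj* and *Pilrb1* and then *Pilra*, the inhibitory partner of the Pilrb receptors (at least 18.3-fold lower), and *Akr1c21*, a hydroxysteroid dehydrogenase with 0 counts in all 5 day 2 libraries (at least 14.5-fold lower). *Pilra* shares 15.1% of its exon bases with *Zcwpw1*. At a floor of 10 counts the numbers are 356 and 93.

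Ribosome biogenesis factors fell without exception among those listed. All 30 ribosome biogenesis factors fell, 28 of them past 0.58, all 30 with no overlap between the days, and the median was -1.12. Without day 2 replicates 1 and 2, 0 rose, 30 fell and the median was -1.15, and with only replicates 1 and 2 kept, 0 rose, 29 fell and the median was -1.09. The changes ran from -1.76 for *Rrp9*, a U3 snoRNP protein of pre-rRNA processing, to -0.47 for *Ppan*, a large subunit assembly factor. *Rrp9* was at 212, 229, 205, 199.8 and 218 CPM in the 5 day 0 libraries and 61.8, 58.97, 55.6, 80.4 and 57.1 CPM in the 5 day 2 libraries (adjusted p = 4.1e-08). *Wdr12*, of the large subunit maturation complex, fell from 211 to 67.9 CPM (log2 fold change -1.64 ± 0.08 (SE), adjusted p = 1.2e-08). The 5 day 2 values of *Rrp9* are each well under the lowest day 0 value.

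Ribosomal proteins fell too, by less. Of 83 cytosolic ribosomal protein genes, 66 fell and none rose (median -0.51, 45 with no overlap), but only 27 passed the 0.58 limit. The size depended on the library: the median was -0.24 with 51 falling without day 2 replicates 1 and 2, and -0.99 with all 83 falling without replicates 3, 4 and 5. *Rpl7l1* fell from 329 to 199 CPM (log2 fold change -0.73 ± 0.09 (SE), adjusted p = 1.5e-05) and *Rpl22l1* from 158 to 58.98 CPM (log2 fold change -1.42 ± 0.22 (SE), adjusted p = 1.3e-04), both paralogs of the ribosomal proteins they are named for. Of 77 mitochondrial ribosomal proteins, 69 fell and none rose, with a median of -0.76 (-0.63 without replicates 1 and 2). *Mrpl52* fell from 96.5 to 27.1 CPM (log2 fold change -1.84 ± 0.17 (SE), adjusted p = 1.5e-06), and *Mrpl19* from 187 to 74.5 CPM (log2 fold change -1.33 ± 0.08 (SE), adjusted p = 6.4e-08), with 36.0% of exon bases shared with *Gcfc2*.

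The enzymes that charge tRNA followed. Of 20 cytosolic aminoacyl-tRNA synthetases 17 fell and 1 rose (median -0.83), and without day 2 replicates 1 and 2, 1 rose, 18 fell and the median was -0.74. *Rars*, for arginine, was at 468, 465, 499.8, 477 and 451 CPM in the 5 day 0 libraries and 174, 179, 214, 219 and 201 CPM in the 5 day 2 libraries (log2 fold change -1.26 ± 0.08 (SE), adjusted p = 9.7e-08). *Tars*, for threonine, fell from 704 to 347 CPM (log2 fold change -1.02 ± 0.08 (SE), adjusted p = 2.1e-07). *Vars*, for valine, was called higher with overlapping days (48.9 to 82.1 CPM, log2 fold change 0.75 ± 0.18 (SE), adjusted p = 0.0029).

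Translation control and the ATF4 program were mostly lower. ATF4 is the transcription factor made when eIF2 is phosphorylated, and it drives amino acid synthesis and import. Of 25 ATF4 and CHOP targets and regulators, 17 fell and 2 rose (median -0.58, and -0.42 without day 2 replicates 1 and 2). *Psat1*, of serine synthesis, was at 864, 835, 922, 891 and 837 CPM in the 5 day 0 libraries and 421, 425, 478, 487 and 479 CPM in the 5 day 2 libraries (log2 fold change -0.93 ± 0.08 (SE), adjusted p = 5.1e-07), and *Cth*, of cysteine synthesis, fell from 47.5 to 17.5 CPM (log2 fold change -1.45 ± 0.17 (SE), adjusted p = 9.0e-06). The 2 that rose were *Ppp1r15a* (GADD34), which directs eIF2 dephosphorylation (16.9, 18.1, 18.4, 13.97 and 23.8 CPM in the 5 day 0 libraries and 58.5, 52.6, 46.4, 49.9 and 45.4 CPM in the 5 day 2 libraries, log2 fold change 1.47 ± 0.13 (SE), adjusted p = 1.1e-06), and the stress protein *Nupr1* (37.3 to 57.8 CPM, log2 fold change 0.63 ± 0.11 (SE), adjusted p = 2.6e-04), whose call was lost with all 30 libraries in 1 fit (adjusted p = 0.067). Both are known targets of the pathway, and they went against the other called members.

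Of 17 eIF2 kinases and translation brakes 10 fell and 6 rose (median -0.56), with the same counts without day 2 replicates 1 and 2 (median -0.53). The falls were led by *Eif2b1* (179 to 73.95 CPM, log2 fold change -1.28 ± 0.09 (SE), adjusted p = 1.1e-07) and *Eif2b3* (98.7 to 48.7 CPM, log2 fold change -1.02 ± 0.08 (SE), adjusted p = 5.1e-07), subunits of the factor that reloads eIF2 with GTP, which is not itself a brake. *Eif4ebp2*, a cap-binding repressor, rose from 6.99, 7.39, 6.87, 8.097 and 15.8 CPM to 44.7, 42.2, 22.7, 29.8 and 41.1 CPM (log2 fold change 2.001 ± 0.25 (SE), adjusted p = 2.1e-05).

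Arginine, proline and polyamine enzymes were lower in 19 of 28 and higher in 3 (median -0.65, and -0.596 without day 2 replicates 1 and 2). *Srm*, spermidine synthase, was at 395, 394, 369.8, 359.8 and 399 CPM in the 5 day 0 libraries and 114, 121, 111, 152 and 108 CPM in the 5 day 2 libraries (log2 fold change -1.66 ± 0.10 (SE), adjusted p = 4.3e-08), and *Sms*, spermine synthase, fell from 134 to 65.4 CPM (log2 fold change -1.03 ± 0.08 (SE), adjusted p = 3.1e-07). *Smox*, which breaks spermine down, rose from 8.54, 7.39, 7.27, 7.28 and 11.1 CPM to 80.03, 79.1, 55.2, 52.8 and 52.5 CPM (log2 fold change 2.94 ± 0.17 (SE), adjusted p = 4.3e-08), and *Oaz2*, an antizyme that limits polyamines, rose from 23.9 to 35.7 CPM (log2 fold change 0.58 ± 0.11 (SE), adjusted p = 5.1e-04). Amino acid transporters were split, with 10 of 22 higher and 6 lower (median 0.26). *Slc38a5* rose from 57.6 to 105 CPM (log2 fold change 0.87 ± 0.11 (SE), adjusted p = 1.9e-05), and *Slc7a3*, a cationic amino acid carrier near the detection limit, was called higher (0.377 to 1.38 CPM, log2 fold change 1.83 ± 0.50 (SE), adjusted p = 0.0064) but not without day 2 replicates 1 and 2 (0.98, adjusted p = 0.1). *Slc3a2*, the heavy chain of several carriers, fell from 266 to 169 CPM (log2 fold change -0.65 ± 0.07 (SE), adjusted p = 4.6e-06), as did *Slc7a7* (36.3 to 20.3 CPM, log2 fold change -0.84 ± 0.10 (SE), adjusted p = 1.4e-05).

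Chaperones fell in the endoplasmic reticulum (ER) and in the cytosol. Of 19 ER chaperones and genes of the unfolded protein response, 15 fell and 1 rose (median -1.11), 14 of the 15 past 0.58. After leaving out day 2 replicates 1 and 2, 1 rose, 15 fell and the median was -1.07. *Pdia4*, a disulfide isomerase, fell from 439 to 134 CPM (log2 fold change -1.71 ± 0.10 (SE), adjusted p = 3.2e-08), and *Sdf2l1* from 295 to 106 CPM (log2 fold change -1.48 ± 0.07 (SE), adjusted p = 1.1e-08). *Ern1* (IRE1), a sensor of the response, was the member that rose (2.94, 4.55, 3.97, 3.05 and 4.61 CPM to 22.4, 19.9, 7.43, 7.71 and 9.93 CPM, log2 fold change 1.82 ± 0.32 (SE), adjusted p = 3.2e-04). *Hspa5* (BiP), the main ER chaperone, was at 4254, 4299.6, 4424, 4066 and 4195 CPM in the 5 day 0 libraries and 1963, 1929.7, 1893, 2183 and 1896 CPM in the 5 day 2 libraries (log2 fold change -1.11 ± 0.08 (SE), adjusted p = 1.6e-07), and was singled out for its promoter.

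Of 16 matched promoters of this list 14 (87.5%) hold CCAAT on either strand, against 39.9% of all promoters. The share is not particular to the list, since it was 19 of 24 (79.2%) for mitosis and cytokinesis and 15 of 18 (83.3%) for sterol and fatty acid synthesis. Here *Hspa5* is shown with its 4 CCAAT matches, which start 214, 186, 98 and 65 bases before the start site (chr2:34771840-34772089, plus strand, GRCm38.p6).
Hspa5: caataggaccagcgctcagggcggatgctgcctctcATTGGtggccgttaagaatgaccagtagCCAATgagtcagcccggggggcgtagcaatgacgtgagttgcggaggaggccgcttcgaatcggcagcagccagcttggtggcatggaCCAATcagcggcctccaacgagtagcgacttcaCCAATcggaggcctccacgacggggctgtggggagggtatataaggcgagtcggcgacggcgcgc

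Of 15 cytosolic heat shock genes 13 fell and 2 rose (median -0.92), against 12 and 2 without day 2 replicates 1 and 2 (median -0.76). *Hsp90aa1* was at 3063, 2866, 3105, 2901 and 2829 CPM in the 5 day 0 libraries and 847, 842, 1169, 1411 and 1112 CPM in the 5 day 2 libraries (log2 fold change -1.46 ± 0.13 (SE), adjusted p = 1.4e-06), and *Hspa4* fell from 1013 to 491 CPM (log2 fold change -1.04 ± 0.07 (SE), adjusted p = 1.5e-07). The 2 that rose were *Bag3*, a cochaperone at low level (2.01 to 4.28 CPM, log2 fold change 1.09 ± 0.32 (SE), adjusted p = 0.01), and *Hsf1*, the heat shock transcription factor (9.95 to 16.1 CPM, log2 fold change 0.69 ± 0.20 (SE), adjusted p = 0.0078), each with days that overlap.

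Cell cycle genes differed by list. DNA replication and nucleotide supply fell: 23 of 32 genes were lower and 2 higher (median -0.42), and without day 2 replicates 1 and 2, 1 rose, 24 fell and the median was -0.38. *Dut*, which clears dUTP, fell from 302 to 144 CPM (log2 fold change -1.07 ± 0.11 (SE), adjusted p = 2.4e-06) and *Rfc3*, of the clamp loader, from 125 to 70.98 CPM (log2 fold change -0.81 ± 0.07 (SE), adjusted p = 7.9e-07). *Pole*, a replicative polymerase, rose from 82.05 to 133 CPM (log2 fold change 0.702 ± 0.16 (SE), adjusted p = 0.0019). *Cdt1*, a licensing factor, was called higher (log2 fold change 0.68 ± 0.25 (SE), adjusted p = 0.029) with overlapping days, and the call was lost on leaving out any of 5 single libraries (adjusted p from 0.052 to 0.071).

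Mitosis and cytokinesis genes did not follow. Of 28, 11 rose and 5 fell (median 0.04), against 13 and 3 without day 2 replicates 1 and 2 (median 0.088). The kinetochore proteins *Cenpf* (283 to 531 CPM, log2 fold change 0.91 ± 0.08 (SE), adjusted p = 7.4e-07) and *Cenpe* (233 to 321 CPM, log2 fold change 0.46 ± 0.07 (SE), adjusted p = 6.4e-05) rose, while *Bub1b*, of the spindle checkpoint, fell from 502 to 391 CPM (log2 fold change -0.36 ± 0.08 (SE), adjusted p = 0.0014). *Kif20a*, a cytokinesis kinesin, is counted lower (log2 fold change -0.47 ± 0.08 (SE), adjusted p = 2.0e-04), with 29.3% of its exon bases shared with *Cdc23*.

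Among G1 cyclins and cell cycle inhibitors, 9 of 22 rose and 4 fell (median 0.17), against 10 and 4 without day 2 replicates 1 and 2 (median 0.28). *Cdkn1b* (p27), a kinase inhibitor, was at 62.0, 56.1, 55.3, 73.99 and 54.7 CPM in the 5 day 0 libraries and 82.1, 77.5, 139, 78.9 and 106 CPM in the 5 day 2 libraries (log2 fold change 0.68 ± 0.16 (SE), adjusted p = 0.0023), with replicates 3 and 5 the highest. *Btg2*, an antiproliferative gene, was at 38.8, 24.9, 25.8, 25.7 and 23.9 CPM in the 5 day 0 libraries and 127, 139.9, 109.9, 91.7 and 105 CPM in the 5 day 2 libraries (log2 fold change 2.04 ± 0.15 (SE), adjusted p = 2.2e-07). *Rb1* rose from 36.8 to 98.5 CPM (log2 fold change 1.42 ± 0.10 (SE), adjusted p = 1.1e-07). *Cdk4*, the G1 kinase, fell from 611 to 305 CPM (log2 fold change -1.004 ± 0.13 (SE), adjusted p = 2.5e-05), with 19.7% of its exon bases shared with *Tspan31*, and *Cdkn2a* from 103 to 76.2 CPM (log2 fold change -0.43 ± 0.10 (SE), adjusted p = 0.0021), a call lost with centring by gene length (adjusted p = 0.5). Inhibitors are thus on both sides of 0.

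Histone genes moved both ways. *H1f0*, the linker histone of cells that leave the cycle, was at 225, 198, 205, 193 and 181 CPM in the 5 day 0 libraries and 779, 843, 1027, 763 and 860.4 CPM in the 5 day 2 libraries (log2 fold change 2.09 ± 0.10 (SE), adjusted p = 1.0e-08), 4.27-fold higher. Of 8 replacement histones 3 rose and 3 fell. *H2afv* rose from 52.4 to 139.7 CPM (log2 fold change 1.41 ± 0.13 (SE), adjusted p = 1.2e-06), and *H2afz* and *H2afy* (macroH2A1) fell from 883 to 486 CPM (log2 fold change -0.86 ± 0.10 (SE), adjusted p = 6.3e-06) and 251 to 127 CPM (log2 fold change -0.99 ± 0.10 (SE), adjusted p = 3.4e-06). Of 61 replication-dependent histone genes 10 rose and 20 fell (median -0.22), but without day 2 replicates 1 and 2 14 rose, 14 fell and the median was 0.02. *Hist3h2ba* rose from 52.4 to 113 CPM (log2 fold change 1.11 ± 0.11 (SE), adjusted p = 3.2e-06). *Hist1h2ae* (log2 fold change -0.89 ± 0.24 (SE), adjusted p = 0.0053) and *Hist1h2an* (log2 fold change -0.89 ± 0.16 (SE), adjusted p = 2.8e-04) were lower, and *Hist2h2aa2* was higher (2.48, 2.76, 3.46, 3.79 and 4.74 CPM at day 0 and 5.69, 6.75, 5.43, 29.8 and 4.91 CPM at day 2, log2 fold change 1.61 ± 0.49 (SE), adjusted p = 0.011), with a log2 change of 0.72 (adjusted p = 0.013) without day 2 replicate 4. All exon bases of *Hist2h2aa2* are shared with *Gm20632*, and these histones have near-identical copies. The transcripts lack poly(A) tails and are kept by ribosomal depletion.

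Of 78 nuclear-encoded respiratory chain (OXPHOS) subunits 36 fell, 1 rose and 41 were not called (median -0.33). This depended on the library and on gene length: 9 rose, 27 fell and the median was -0.104 without day 2 replicates 1 and 2, and with centring by gene length 15 rose and 21 fell (median -0.08). *Atp5g1*, an ATP synthase subunit, fell from 307 to 126 CPM (log2 fold change -1.28 ± 0.10 (SE), adjusted p = 3.6e-07). The extremes were isoforms of other tissues at low level, *Cox6b2* (2.09 to 10.8 CPM, log2 fold change 2.37 ± 0.24 (SE), adjusted p = 3.6e-06) and *Cox6a2* (1.88 to 0.285 CPM, log2 fold change -2.698 ± 0.40 (SE), adjusted p = 7.6e-05). Of 7 mitochondria-encoded subunits tested (median -0.32), *mt-Nd1* was the 1 called (812 to 520.0 CPM, log2 fold change -0.64 ± 0.13 (SE), adjusted p = 0.001), a call lost with centring by gene length (adjusted p = 0.42).

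In the TCA cycle list, 16 of 23 genes fell and 2 rose (median -0.46, -0.32 without day 2 replicates 1 and 2). *Idh3a* was at 216, 209, 229, 256 and 217 CPM in the 5 day 0 libraries and 100.0, 96.98, 115, 124 and 105 CPM in the 5 day 2 libraries (log2 fold change -1.06 ± 0.09 (SE), adjusted p = 6.2e-07), and *Dld* fell from 267 to 139 CPM (log2 fold change -0.94 ± 0.11 (SE), adjusted p = 1.1e-05). *Pcx*, pyruvate carboxylase, rose from 9.27 to 28.4 CPM (log2 fold change 1.61 ± 0.19 (SE), adjusted p = 1.3e-05), and *Ogdh* was called higher with overlap (log2 fold change 0.69 ± 0.18 (SE), adjusted p = 0.0054). Glycolysis had 5 rises and 8 falls among 25 (median -0.10), against 8 rises and 6 falls without day 2 replicates 1 and 2 (median -0.085). *Bpgm*, which makes the 2,3-bisphosphoglycerate of red cells, rose from 19.3 to 29.5 CPM (log2 fold change 0.61 ± 0.10 (SE), adjusted p = 2.0e-04), and *Aldoc* from 1.38 to 2.47 CPM (log2 fold change 0.83 ± 0.26 (SE), adjusted p = 0.015), a call lost without day 2 replicates 3, 4 and 5 (adjusted p = 0.23) and with all genes of any count kept (0.069). *Slc16a1*, the lactate carrier, fell from 804 to 361 CPM (log2 fold change -1.15 ± 0.09 (SE), adjusted p = 2.1e-07), and *Eno3* from 14.5 to 7.5 CPM (log2 fold change -0.96 ± 0.15 (SE), adjusted p = 9.2e-05).

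Lipid and redox genes were lower on balance. Of 26 genes of sterol and fatty acid synthesis 14 fell and 5 rose (median -0.33). The counts were 15 and 2 without day 2 replicates 1 and 2, with the same median. *Elovl6* fell from 66.8 to 24.95 CPM (log2 fold change -1.42 ± 0.09 (SE), adjusted p = 9.1e-08) and *Nsdhl* from 78.6 to 36.3 CPM (log2 fold change -1.11 ± 0.09 (SE), adjusted p = 4.0e-07), while *Srebf1*, a regulator of these genes, rose from 1028 to 1785 CPM (log2 fold change 0.796 ± 0.15 (SE), adjusted p = 4.1e-04). *Fasn*, fatty acid synthase, was at 123, 133, 117, 121 and 168 CPM in the 5 day 0 libraries and 483, 495, 137, 157 and 157 CPM in the 5 day 2 libraries (log2 fold change 1.11 ± 0.35 (SE), adjusted p = 0.013), and its call rests on day 2 replicates 1 and 2: without them it was 0.22 (adjusted p = 0.098). Of 22 glutathione and antioxidant genes 12 fell and 3 rose (median -0.34). *Gsto1* (207 to 75.01 CPM, log2 fold change -1.46 ± 0.16 (SE), adjusted p = 7.3e-06) and *Prdx6* (322 to 153 CPM, log2 fold change -1.07 ± 0.10 (SE), adjusted p = 1.3e-06) fell. *Prdx2*, the peroxiredoxin abundant in red cells, rose from 643 to 926 CPM (log2 fold change 0.53 ± 0.08 (SE), adjusted p = 5.8e-05), and *Txnrd2*, of mitochondria, from 46.5 to 73.9 CPM (log2 fold change 0.67 ± 0.10 (SE), adjusted p = 7.5e-05).

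Genes that clear organelles and proteins leaned upward. Of 24 autophagy and mitophagy genes 13 rose and 3 fell (median 0.32), and without day 2 replicates 1 and 2, 15 rose, 2 fell and the median was 0.35. *Wipi1*, which acts early in autophagosome formation, was at 3.06, 3.21, 3.803, 2.82 and 3.97 CPM in the 5 day 0 libraries and 20.9, 18.1, 15.2, 13.4 and 18.7 CPM in the 5 day 2 libraries (log2 fold change 2.35 ± 0.17 (SE), adjusted p = 1.5e-07), and *Pink1*, the kinase that marks damaged mitochondria, rose from 30.3 to 71.9 CPM (log2 fold change 1.25 ± 0.11 (SE), adjusted p = 7.2e-07). *Atg101* (59.9 to 41.7 CPM, log2 fold change -0.52 ± 0.14 (SE), adjusted p = 0.0052, 0.055 with centring by gene length) and *Atg5* (87.05 to 63.98 CPM, log2 fold change -0.44 ± 0.08 (SE), adjusted p = 4.7e-04) fell. Of 18 ubiquitin and export genes of red cell maturation 9 rose and 3 fell (median 0.38). *Ranbp10* rose from 10.9 to 43.5 CPM (log2 fold change 2.00 ± 0.22 (SE), adjusted p = 5.8e-06) and *Trim10*, an erythroid ubiquitin ligase, from 42.5 to 97.03 CPM (log2 fold change 1.19 ± 0.07 (SE), adjusted p = 4.5e-08). *Xpo7*, an export receptor of maturing red cells, fell (log2 fold change -0.304 ± 0.08 (SE), adjusted p = 0.0051; 0.051 without day 2 replicates 3, 4 and 5). *Ube2b* was called lower (log2 fold change -0.39 ± 0.16 (SE), adjusted p = 0.046) but lost that call on leaving out any of 6 single libraries (adjusted p from 0.073 to 0.12).

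Bcl2 family and caspase genes gave 7 rises and 4 falls among 19 (median 0.16), against 8 and 4 without day 2 replicates 1 and 2 (median 0.19). The BH3-only genes *Bmf* (0.465 to 2.96 CPM, log2 fold change 2.63 ± 0.33 (SE), adjusted p = 2.1e-05) and *Bcl2l11* (Bim; 5.22 to 15.3 CPM, log2 fold change 1.55 ± 0.19 (SE), adjusted p = 1.3e-05), which promote cell death, rose. *Bax* fell from 109.9 to 60.6 CPM (log2 fold change -0.86 ± 0.12 (SE), adjusted p = 5.3e-05), with 12.2% of exon bases shared with *Gm45808*. Members that promote death thus lie on both sides.

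Interferon-stimulated genes had no common direction. Of 26 tested 9 rose and 10 fell (median 0.07; -0.08 without day 2 replicates 1 and 2). *Oasl1* was at 48.8, 47.9, 47.1, 48.5 and 49.8 CPM in the 5 day 0 libraries and 10.4, 8.91, 6.54, 13.97 and 8.73 CPM in the 5 day 2 libraries (log2 fold change -2.31 ± 0.16 (SE), adjusted p = 1.4e-07), and *Oas1a* fell from 10.7 to 5.41 CPM (log2 fold change -0.99 ± 0.14 (SE), adjusted p = 6.5e-05). *Stat2*, part of the interferon-activated factor, rose from 6.61 to 15.7 CPM (log2 fold change 1.25 ± 0.17 (SE), adjusted p = 4.3e-05), and *Cmpk2* from 10.5 to 20.4 CPM (log2 fold change 0.96 ± 0.15 (SE), adjusted p = 9.3e-05). Of 14 MHC class I presentation genes 8 fell, 1 rose and 5 were not called (median -0.401), and 6 fell without day 2 replicates 1 and 2 (median -0.25). *Psmb10*, an immunoproteasome subunit, was at 81.6, 88.03, 83.8, 73.03 and 83.9 CPM in the 5 day 0 libraries and 12.4, 10.96, 13.96, 18.7 and 17.1 CPM in the 5 day 2 libraries (log2 fold change -2.49 ± 0.14 (SE), adjusted p = 2.7e-08), and *B2m*, the light chain of MHC class I, fell from 150.2 to 72.6 CPM (log2 fold change -1.05 ± 0.13 (SE), adjusted p = 1.6e-05). *Tapbp* was higher (16.96 to 27.1 CPM, log2 fold change 0.68 ± 0.12 (SE), adjusted p = 3.6e-04), with 24.9% of exon bases shared with *Gm19412*.

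**Figure D3:**
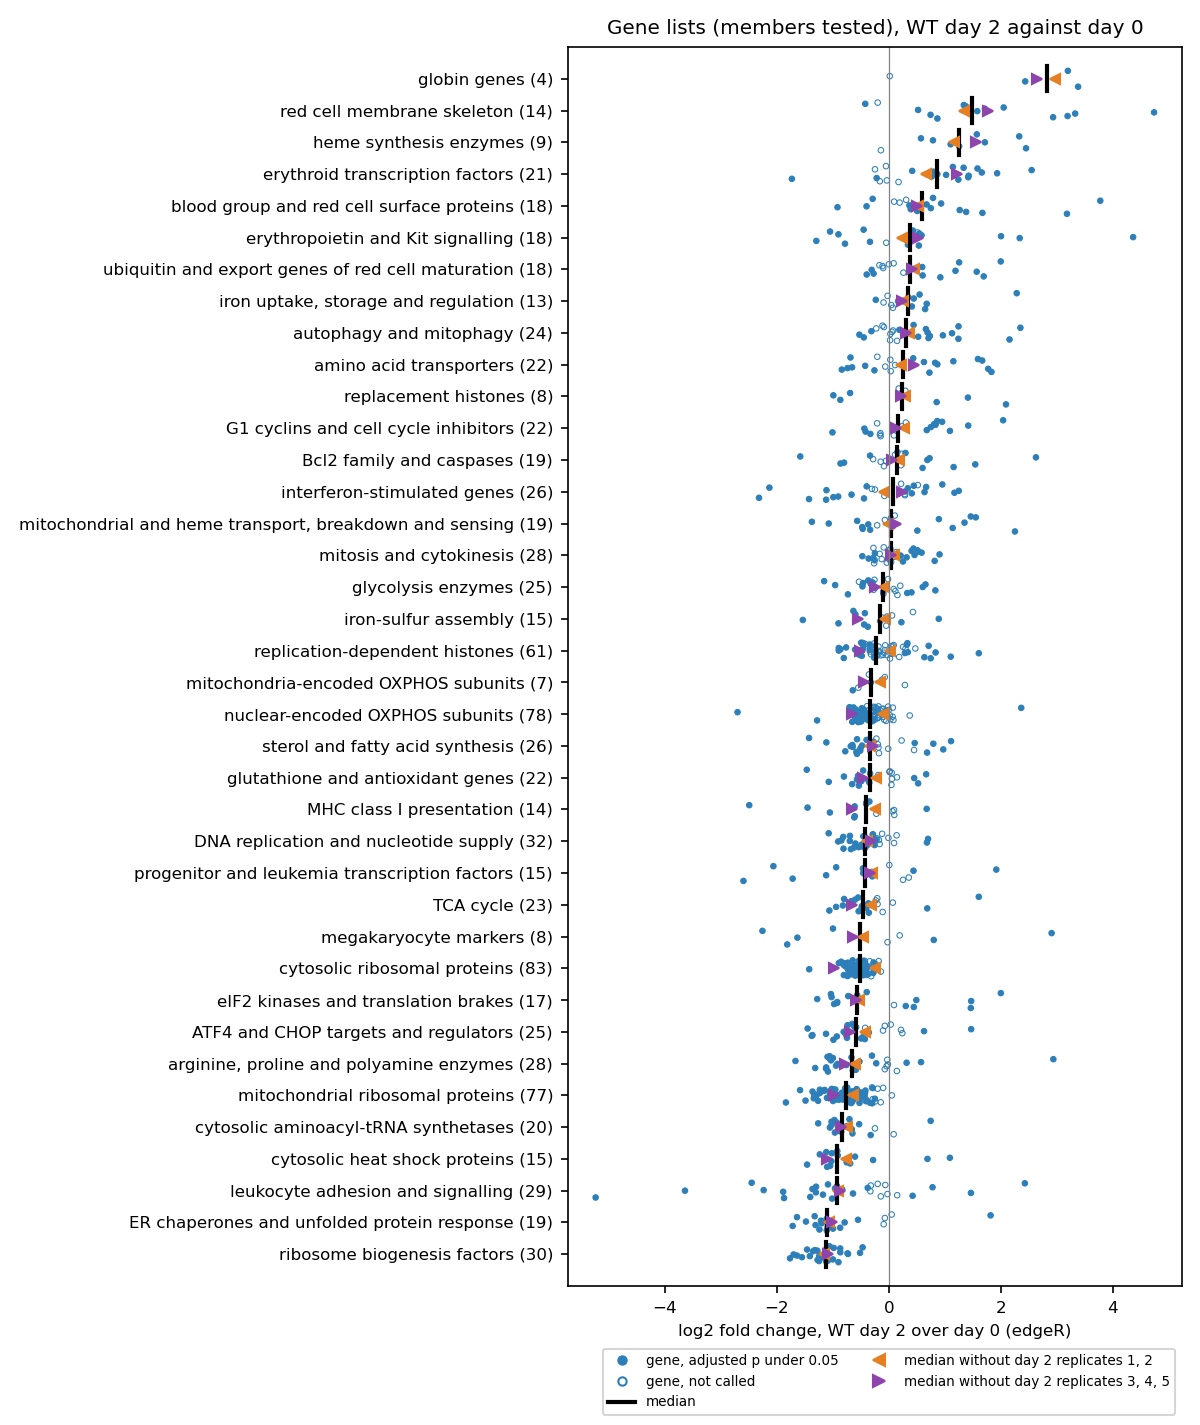
Log2 fold change at day 2 over day 0 (x axis) of the tested members of 38 gene lists (number tested in parentheses); filled points passed the test, the black bar is the median, and triangles are medians without day 2 replicates 1 and 2 (orange) or without 3, 4 and 5 (purple). Ribosome biogenesis sits wholly left of 0 and heme synthesis almost wholly right of it, and the triangles part most for the cytosolic ribosomal proteins.

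Transcript class and length moved with the change. Of 1159 long non-coding and unclassified (TEC) genes, 505 (43.6%) rose and 169 fell, with a median of 0.58. Of 747 pseudogenes 270 (36.1%) fell and 53 rose, and of 130 snoRNA and scaRNA genes 33 (25.4%) fell and 4 rose. Among the 67 genes at the floor at day 0, 41 are TEC and 6 sense-intronic. In protein-coding genes the median log2 change rose from -0.31 in the shortest of 4 equal groups by exonic length (255 to 2854 bases) through -0.098 and 0.10 to 0.33 in the longest (6805 to 123179 bases).

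Each day 2 library showed this slope, and replicates 1 and 2 most. In the shortest group the medians of the 5 day 2 libraries, relative to the day 0 mean, were -0.51, -0.49, -0.18, -0.18 and -0.197, and in the longest 0.45, 0.46, 0.23, 0.18 and 0.27, whereas day 0 libraries lay between -0.066 and 0.055 in both. Short genes include the ribosomal proteins, respiratory subunits, histones and pseudogenes. When each library was centred within 20 bins of length, an alternative chosen after seeing the data, 3957 genes rose and 3772 fell, 6629 of them among the 7985 and in the same direction. This centring also removes any real change that short genes share. The median became -0.08 for the respiratory subunits (15 higher, 21 lower), -0.31 for the cytosolic ribosomal proteins (40 lower, none higher) and 0.18 for the histones. It stayed at -1.12 for ribosome biogenesis, 1.24 for heme synthesis and 1.36 for the membrane skeleton. The part of RNA quality or library preparation in the slope was not tested.

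**Figure D4:**
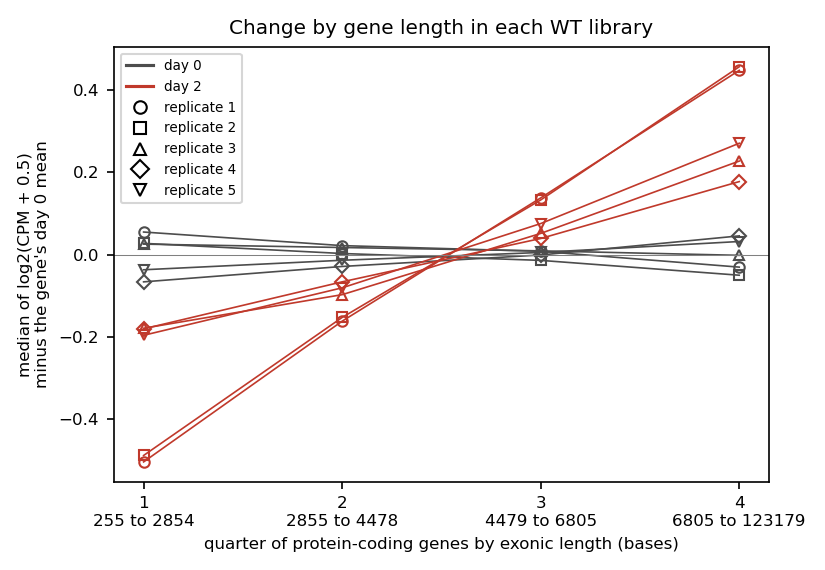
Median over protein-coding genes of log2(CPM + 0.5) minus the gene's day 0 mean (y axis), in 4 equal groups by exonic length (x axis, bases), 1 line for each of the 10 WT libraries. Day 0 lines (grey) stay near 0, day 2 lines (red) climb with length, and replicates 1 and 2 climb most, from about -0.5 to 0.46.

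Promoters of the genes that moved were described with 4 short motifs over the 300 bases from 250 before to 50 after the RefSeq start (GRCm38.p6), on either strand. A promoter was matched for 8944 of the 12839 genes. AGATAA or TGATAA was in 10.04% of all these promoters, in 9.79% of those of genes that rose and in 10.8% of those of genes that fell. CACACCC was in 8.40%, 7.99% and 8.29%, CCAAT in 39.9%, 40.0% and 39.6%, and CACGTG in 10.6%, 8.37% and 12.3%. Single lists differed more: the GATA motif was in 7 of 14 promoters of red cell surface genes and in 6 of 18 of erythroid transcription factors, and in 0 of 25 of ribosome biogenesis factors. These shares did not follow the direction of the lists: it was in 4 of 10 of iron-sulfur assembly and 6 of 22 of leukocyte adhesion genes, where more members fell than rose, and in 0 of 14 of mitochondrial and heme transport genes. CACGTG was in 6 of those 25 and in 4 of 12 of aminoacyl-tRNA synthetases. These shares are descriptions of small lists, and a match is not a bound site.

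To see which of these changes differ in the *Abcb10* knockout, the interaction of genotype and day was tested over the 20 libraries of both genotypes at days 0 and 2. A gene without a called interaction is not thereby shown to change alike in both. The clone without *Abcb10* (Abcb10-null) is 1 CRISPR/Cas9 line, so clone and genotype cannot be told apart. The change differed for 3188 of 13980 genes (22.8%). This count was 1791 without WT day 2 replicates 1 and 2 and 5111 without WT day 2 replicates 3, 4 and 5. Of the 7985 genes called in WT, 2478 (31.0%) also had a called interaction. Both tests used the same 10 WT libraries, so this share is not independent of the choice of called genes.

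Genes called in both WT and the interaction were ranked by interaction p. The first 5 whose change in the clone lay below that in WT were all genes that interferon is known to induce. *Irf7*, the interferon amplifier, went in WT from 2.83, 2.46, 2.61, 2.23 and 1.34 CPM to 2.97, 6.38, 4.61, 6.64 and 5.36 CPM (log2 fold change 1.17 ± 0.26 (SE), adjusted p = 0.0018), and in the clone it was at 62.03 ± 13.04 CPM at day 0 and 9.91 ± 3.69 CPM at day 2 (interaction -3.81, adjusted p = 6.6e-07). *Oas3* changed by 0.56 in WT and -2.59 in the clone (interaction -3.14, adjusted p = 6.6e-07), *Cmpk2* by 0.95 and -1.36 (-2.31), *Ube2l6* by 0.91 and -0.55 (-1.46) and *Slfn5* by 0.47 and -1.28 (-1.75). All 5 fitted changes were positive in WT and negative in the clone. The choice fixed the sign of the difference between them, but not these signs. The WT calls of *Oas3* (adjusted p = 0.08) and *Slfn5* (0.057) were lost with centring by gene length.

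The 5 chosen in the same way with a change in the clone above that in WT all fell in WT, and included nucleolar proteins. *Ncl*, nucleolin, went in WT from 694, 829, 907, 778 and 742 CPM to 353, 326, 367, 475 and 344.9 CPM (log2 fold change -1.08 ± 0.11 (SE), adjusted p = 3.6e-06) and was at 410.0 ± 72.2 CPM at day 0 and 521 ± 67.7 CPM at day 2 in the clone (interaction 1.44, adjusted p = 2.5e-05). *Gpatch4*, a nucleolar protein, changed by -1.69 and 0.11 (interaction 1.79, adjusted p = 3.5e-05), and *Dctd*, dCMP deaminase, by -1.51 and -0.36 (1.15). *Fcgr1*, an IgG receptor that interferon induces, changed by -2.47 and 1.95 (4.42). *Hist1h4a* changed by -0.49 and 1.75 (2.24), but its WT call (adjusted p = 0.045) was lost on leaving out any of 7 single libraries (adjusted p from 0.054 to 0.11).

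Of the 9 heme enzymes, *Ppox* (2.32 in WT, 0.88 in the clone, interaction -1.45 ± 0.23, adjusted p = 3.8e-04) and *Fech* (1.56 and 1.13, -0.43 ± 0.11, adjusted p = 0.0095) had a called interaction. The share called was 22.8% over all genes and 31.0% among genes called in WT, so the enzymes do not stand out by this count. *Cpox* (0.57 and 0.07, adjusted p = 0.058) and *Urod* (0.78 and 0.43, adjusted p = 0.054) came next. For *Alas2* the changes were 2.44 and 1.99 (interaction -0.45 ± 0.34, adjusted p = 0.35). Its mean level was lower in the clone on both days: 39.3 CPM at day 0 and 157 CPM at day 2, against 101 and 549 CPM in WT. *Tal1* (1.23 and 1.22, -0.01 ± 0.19) had no called interaction. *Tfrc* changed by 0.64 in WT and -0.43 in the clone (interaction -1.07, adjusted p = 0.0036).

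**Figure D5:**
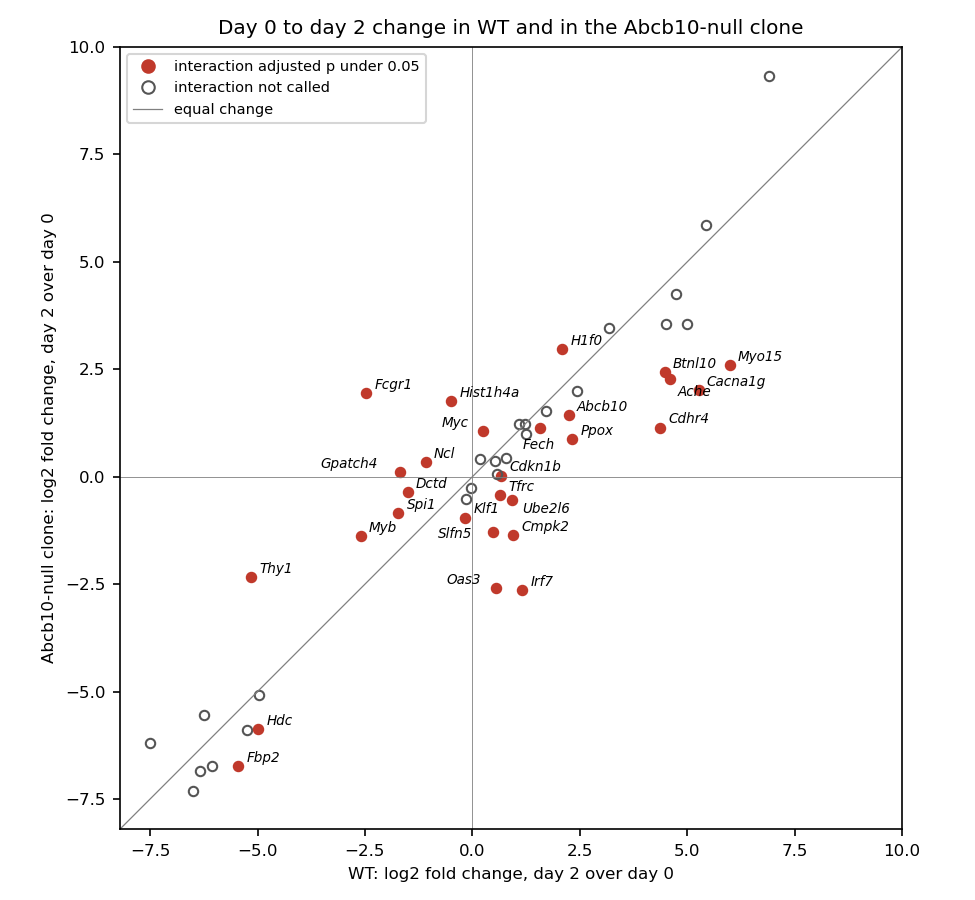
Fitted log2 fold change from day 0 to day 2 in WT (x axis) and in the Abcb10-null clone (y axis) for the genes chosen by name, by size of change or by interaction; filled red points have an interaction adjusted p under 0.05 and the diagonal marks equal change. *Irf7*, *Oas3*, *Cmpk2*, *Slfn5* and *Ube2l6* lie right of 0 and below it, and *Fcgr1* and *Hist1h4a* lie left of 0 and above it; values of genes at the floor depend on the fit's prior count.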

How the data were processed

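Total RNA of WT MEL cells was measured in 5 libraries at day 0 and 5 at day 2 of DMSO. The authors deposited 1 table of raw counts for each gene and library. Their processing notes name STAR 2.6.1b, featureCounts 1.6.3 and GRCm38 (mm10). How counting treated strand and multi-mapped reads is not given in the sources used here, so genes that share exon bases or have near-identical copies are uncertain. In the annotation used here 37 identifiers, with 0.0116% of counts, were absent.

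Genes were filtered with filterByExpr, scaled by TMM and tested with the quasi-likelihood F test of edgeR 4.0.16 (limma 3.58.1, R 4.3.3), day 2 over day 0 on the 10 libraries, with Benjamini-Hochberg adjustment over all tested genes. DESeq2 1.42.0 was an alternative. Genotype by day was tested on 20 libraries. The fit was tested on simulated data. The test of day recovered 68 of 100 genes changed by 1 log2 unit and 93 of 100 changed by 2. The interaction test recovered 49 of 100 and 75 of 100. A gene is at the floor with 3 or fewer counts in every library of a day. Its fold bound is the mean CPM of the other day over the CPM of 3 counts. The bound covers neither counting error nor the spread between libraries, and single libraries can lie below it.

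The named genes are a fixed set (the heme enzymes, *Abcb10* and erythroid regulators), the 10 protein-coding genes that moved most each way with at least 5 CPM on the higher day and no overlap, the called extremes and smallest p of each list, the 5 largest floor bounds and the 5 smallest interaction p-values each way. Gene lists and members were chosen with earlier results of these data known. *Hspa5*, *Mir144*, *Mir451a*, *Hbb-bt* and the skeleton genes beyond the rule were named after their values were seen. Some members of the set and lists are counted but not reported here by name.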

Additional observations from a re-analysis of the deposited data

Results flagged for a closer look

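In 21 of 458 groups of 5 libraries (188 genes and 41 list means, each day), 1 library lay farther from the rest than Dixon's 95% limit, and chance gives about 1 in 20. At day 0 the highest library stood apart for *Atg101* (replicate 1 at 68.8 CPM, the others at 56.5 to 58.4), *Btg2* (replicate 1 at 38.8 CPM, the others at 23.9 to 25.8), *Eif4ebp2* (replicate 5 at 15.8 CPM, the others at 6.87 to 8.1), *Etv6* (replicate 5 at 13.9 CPM, the others at 9.71 to 10.6), *Foxo3* (replicate 5 at 55.9 CPM, the others at 42.8 to 46.4), *Myc* (replicate 5 at 49 CPM, the others at 34 to 37.2), *Myo15* (replicate 2 at 0.448 CPM, the others at 0 to 0.064), *Ptpn6* (replicate 1 at 216 CPM, the others at 176 to 187) and *Slfn5* (replicate 1 at 10.1 CPM, the others at 7.21 to 7.94). At day 0 the lowest library stood apart for *H2afy* (replicate 4 at 236 CPM, the others at 253 to 259) and *Slc48a1* (replicate 4 at 245 CPM, the others at 265 to 273). At day 2 the highest library stood apart for *Cd200r3* (replicate 2 at 0.301 CPM, the others at 0 to 0.0626), *Hist2h2aa2* (replicate 4 at 29.8 CPM, the others at 4.91 to 6.75), *Ncl* (replicate 4 at 475 CPM, the others at 326 to 367), *Rrp9* (replicate 4 at 80.4 CPM, the others at 55.6 to 61.8), *Srm* (replicate 4 at 152 CPM, the others at 108 to 121) and *Hspa5* (replicate 4 at 2183 CPM, the others at 1893 to 1963). At day 2 the lowest library stood apart for *Tapbp* (replicate 3 at 20.9 CPM, the others at 27.6 to 29.5). For list means of log2 CPM, the library that stood apart was at 4.34 for progenitor and leukemia transcription factors at day 2 (replicate 1, others 4.21 to 4.23), 6.33 for eIF2 kinases and translation brakes at day 2 (replicate 3, others 6.41 to 6.44) and 5.72 for arginine, proline and polyamine enzymes at day 0 (replicate 4, others 5.87 to 5.903).

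Among 52 genes chosen by name, size of change or interaction p, the change from day 0 to day 2 differed between the Abcb10-null clone and WT for 28 in edgeR's interaction test. Over all genes 22.8% were called in this test, and among genes called in WT 31.0%. The change in the clone minus that in WT, on the log2 scale, was above 0 for 10: *Dctd* 1.15, *Fcgr1* 4.42, *Gpatch4* 1.79, *H1f0* 0.89, *Hist1h4a* 2.24, *Myb* 1.22, *Myc* 0.81, *Ncl* 1.44, *Spi1* 0.87 and *Thy1* 2.800. It was below 0 for 18: *Abcb10* -0.803, *Ache* -2.33, *Btnl10* -2.04, *Cacna1g* -3.24, *Cdhr4* -3.22, *Cdkn1b* -0.65, *Cmpk2* -2.31, *Fbp2* -1.28, *Fech* -0.43, *Hdc* -0.89, *Irf7* -3.81, *Klf1* -0.79, *Myo15* -3.38, *Oas3* -3.14, *Ppox* -1.45, *Slfn5* -1.75, *Tfrc* -1.07 and *Ube2l6* -1.46. The genes named for their interaction p were chosen by this test, and clone and genotype cannot be told apart.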

How the results depend on the processing

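Genes called higher and lower were 4049 and 3936, and DESeq2 gave 5069 and 4110 of 19455 tested, DESeq2 size factors 4171 and 3830, any count 4649 and 4151, the 10-count filter 3710 and 3419, all 30 libraries 4222 and 3739, and leaving out 1 library 3794 to 4429 and 3519 to 4041. Same-numbered libraries did not deviate together (correlations -0.15, -0.092, 0.0997, -0.20 and -0.064), so the numbers do not pair them, and with the replicate block 3703 rose and 3728 fell. The interaction count of 3188 was 1791 without WT day 2 replicates 1 and 2 and 5111 without replicates 3, 4 and 5, 2411 with the block, and 2416 to 3441 on leaving out 1 library. A floor of 10 counts gave 356 and 93 genes. Of 182 named genes called, 171 kept direction and call under the other filters, scalings, fits and single libraries left out. This held for 163 also without day 2 replicates 1 and 2, without replicates 3, 4 and 5, and with length centring. These last settings were all chosen after seeing the data. None of the 182 turned sign. A list median is named as moved where it shifted by at least the list's own spread, the pooled within-day standard deviation of its mean log2 CPM. That spread includes the split of day 2 replicates 1 and 2 from the others, so a list not named can still depend on it. Without replicates 1 and 2 cytosolic ribosomal proteins went from -0.51 to -0.24 (spread 0.29) and nuclear-encoded OXPHOS subunits from -0.33 to -0.104 (0.23). Without day 2 replicates 1 and 2 the list medians that moved were 1.16 for heme synthesis enzymes, 0.25 for iron uptake, storage and regulation, -0.29 for progenitor and leukemia transcription factors, 0.51 for blood group and red cell surface proteins, 0.24 for erythropoietin and Kit signalling, 0.28 for G1 cyclins and cell cycle inhibitors, -0.42 for ATF4 and CHOP targets and regulators, -0.74 for cytosolic aminoacyl-tRNA synthetases, -0.32 for TCA cycle, -0.084 for interferon-stimulated genes, -0.25 for MHC class I presentation, -0.22 for glutathione and antioxidant genes, -1.07 for ER chaperones and unfolded protein response, -0.76 for cytosolic heat shock proteins and 0.022 for replication-dependent histones. Without replicates 3, 4 and 5 they were 1.56 for heme synthesis enzymes, 0.13 for mitochondrial and heme transport, breakdown and sensing, 0.23 for iron uptake, storage and regulation, -0.55 for iron-sulfur assembly, 1.22 for erythroid transcription factors, -0.34 for progenitor and leukemia transcription factors, 1.77 for red cell membrane skeleton, 0.51 for blood group and red cell surface proteins, 0.52 for erythropoietin and Kit signalling, -0.31 for DNA replication and nucleotide supply, 0.12 for G1 cyclins and cell cycle inhibitors, -0.78 for arginine, proline and polyamine enzymes, 0.46 for amino acid transporters, -0.24 for glycolysis enzymes, -0.66 for TCA cycle, 0.24 for interferon-stimulated genes, -0.65 for MHC class I presentation, -0.46 for glutathione and antioxidant genes, -1.01 for ER chaperones and unfolded protein response, -1.096 for cytosolic heat shock proteins, 0.066 for Bcl2 family and caspases, -0.64 for megakaryocyte markers, -0.99 for cytosolic ribosomal proteins, -0.97 for mitochondrial ribosomal proteins, -0.66 for nuclear-encoded OXPHOS subunits and -0.51 for replication-dependent histones. With centring by gene length they were 3.25 for globin genes, -0.26 for progenitor and leukemia transcription factors, 0.21 for erythropoietin and Kit signalling, -0.29 for DNA replication and nucleotide supply, 0.42 for G1 cyclins and cell cycle inhibitors, -0.36 for eIF2 kinases and translation brakes, -0.13 for glutathione and antioxidant genes, -1.003 for ER chaperones and unfolded protein response, 0.091 for Bcl2 family and caspases, -0.78 for leukocyte adhesion and signalling, -0.39 for megakaryocyte markers, -0.61 for mitochondrial ribosomal proteins, -0.079 for nuclear-encoded OXPHOS subunits, 0.061 for mitochondria-encoded OXPHOS subunits and 0.18 for replication-dependent histones. With at least 10 counts in every library they were 2.48 for globin genes, 0.21 for G1 cyclins and cell cycle inhibitors, 0.29 for interferon-stimulated genes, -1.07 for ER chaperones and unfolded protein response and -0.79 for megakaryocyte markers. With globin, mitochondrial and small RNA genes removed it was -1.07 for ER chaperones and unfolded protein response. Leaving out 1 library at a time moved the medians within these ranges: 1.201 to 1.36 for heme synthesis enzymes, -0.12 to 0.15 for mitochondrial and heme transport, breakdown and sensing, -0.27 to -0.0038 for iron-sulfur assembly, -0.46 to -0.36 for progenitor and leukemia transcription factors, 0.51 to 0.67 for blood group and red cell surface proteins, -0.45 to -0.36 for DNA replication and nucleotide supply, 0.13 to 0.27 for G1 cyclins and cell cycle inhibitors, -0.62 to -0.48 for eIF2 kinases and translation brakes, -0.25 to -0.079 for glycolysis enzymes, -0.0776 to 0.18 for interferon-stimulated genes, -0.38 to -0.24 for glutathione and antioxidant genes, -1.14 to -1.04 for ER chaperones and unfolded protein response, -0.97 to -0.83 for cytosolic heat shock proteins, 0.0993 to 0.19 for Bcl2 family and caspases, 0.34 to 0.502 for ubiquitin and export genes of red cell maturation, -0.95 to -0.86 for leukocyte adhesion and signalling and -0.57 to -0.402 for megakaryocyte markers. The uncalled change of *Alas1* ran from -0.201 to 0.0115 on leaving out 1 library, and turned sign: 0.0115 without day 2 replicate 3 and 0.135 without day 2 replicates 3, 4 and 5. The uncalled change of *Klf1* turned sign: 0.133 with length centring. The uncalled change of *Nfe2* ran from -0.11 to 0.0301 on leaving out 1 library, and turned sign: 0.00635 with 10 counts in every library, 0.00335 with globin and small RNA genes removed, 0.0301 without day 2 replicate 3, 0.0899 without day 2 replicates 3, 4 and 5 and 0.0592 with length centring. The uncalled change of *Hbb-bt* ran from -0.191 to 0.192 on leaving out 1 library, and turned sign: -0.0746 with the replicate block, -0.069 without day 0 replicate 4, -0.0145 without day 0 replicate 5, -0.191 without day 2 replicate 4, -0.139 without day 2 replicate 5 and -0.58 without day 2 replicates 3, 4 and 5. The cause of these shifts was not tested.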
